A study of Danio rerio with 6 samples.

Results

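The genes described here encode the proteins that dock on the cap-binding factor eIF4E and hold it back from translation: the eIF4E-binding proteins (4E-BPs) *eif4ebp1*, *eif4ebp2*, *eif4ebp3* and *eif4ebp3l*, and *eif4enif1*, which encodes the eIF4E transporter 4E-T. They were found by symbol, with case ignored, in the gene identifiers of the count tables, which gave 5 genes out of 32520. RNA-seq compared gonads of juvenile zebrafish that were homozygous for an *eif4e1b* mutation (*eif4e1b* -/-, 3 samples) with gonads of wild-type siblings (*eif4e1b* +/+, 3 samples), and each sample pooled 3 gonads. Fish of both genotypes carried tg(ziwi:GFP), a transgene in which the promoter of *ziwi* (*piwil1*) marks germ cells with GFP, and were selected for high fluorescence. GEO's labels call every sample a female ovary, and give neither the age nor the batch of the fish. By microscopy, the paper found that highly fluorescent gonads of mutant juveniles were either ovaries or gonads with differentiating sperm. It regards the latter as most likely ovaries that were turning into testes. Which of these the pooled mutant gonads were is not given in the sources used here. The study made more than 1 mutant line with a small deletion in the third exon, and the line behind these samples is not given in the sources used here. Nothing in the sources says whether the 3 samples of a genotype came from separate clutches, so p-values measure the spread between these pooled samples.

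eIF4E binds the cap at the 5′ end of an mRNA and recruits the scaffold eIF4G, through which the small ribosomal subunit reaches the message. 4E-BPs occupy the same surface of eIF4E as eIF4G and thereby block initiation, until the kinase complex mTORC1 phosphorylates them and they let go. 4E-T uses a related motif, carries eIF4E into the nucleus and into P-bodies, and joins it to the RNA helicase DDX6 and to LSM14 and PAT1 proteins, a group of repressors that in vertebrate oocytes keeps maternal mRNAs stored and silent. eIF4E1b is the paralog of eIF4E found in the germline.

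Of the 5 genes, 4 had lower transcript levels in mutant gonads, none had a higher level and 1 did not pass the test, with TMM factors to scale the libraries. With library totals alone 2 were lower (*eif4enif1* and *eif4ebp3l*), and with upper-quartile factors the same 2 were lower and *eif4ebp2* was higher. In order of size, *eif4enif1* fell 11.4-fold, *eif4ebp3l* 6.03-fold, *eif4ebp3* 1.91-fold and *eif4ebp1* 1.74-fold, whereas *eif4ebp2*, at 0.25 on the log2 scale, did not pass. This count compares with a background of 32.0% of the 20091 tested genes lower in mutant gonads, 37.5% higher and 69.5% changed in either direction (edgeR's quasi-likelihood test, with p-values adjusted by Benjamini and Hochberg's method and a threshold of 0.05, which is the test behind each call below). The median log2 fold change, mutant over wild type, was -0.94 over the 5 genes and 0.23 over all tested genes. All 5 genes passed the filter on low counts, with 82 or more counts in every sample.

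The libraries of the genotypes differed in depth and in make-up. Counts summed to between 5539470 and 8233080 in mutant samples and between 11771342 and 13362230 in wild-type samples, and TMM factors, which correct totals for a few genes taking a large share of the reads, lay between 0.788 and 1.48 in mutant samples and between 0.841 and 0.923 in wild-type samples. Levels below are TMM-normalized counts per 1000000 counts (CPM). The targeted gene *eif4e1b* (ENSDARG00000014565) had 6.73, 1.4 and 3.20 CPM in mutant replicates 1, 2 and 3, against 126, 103 and 120 CPM in wild-type replicates 1, 2 and 3. Oocyte markers were lower in mutant gonads for 19 of 19 tested genes, with summed levels of 650, 134 and 256 CPM in mutant replicates 1, 2 and 3 against 13341 to 17785 CPM in wild-type samples, and no marker was at 0 in all mutant samples. Markers of the exocrine pancreas were higher for 18 of 18 genes, at 44693 to 76811 CPM in mutant samples and 104 to 415 CPM in wild-type samples, with none at 0 in all samples of a genotype. In bulk tissue, fewer cells of a type and less RNA per cell cannot be told apart, which applies to every value below, and the part that cell make-up has in them was not tested.

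The largest change in the family was that of 4E-T. *eif4enif1* (ENSDARG00000016177) had 807, 424 and 626 counts in mutant replicates 1, 2 and 3, and 10470, 9922 and 11251 counts in wild-type replicates 1, 2 and 3. In normalized levels this was 98.8, 65.8 and 83.5 CPM in mutant gonads (82.7 ± 16.5, SD, n = 3), against 951, 914 and 973 CPM in wild-type gonads (946 ± 29.8, SD, n = 3). The wild-type samples were nearly level with each other, and the highest mutant sample lay far below the lowest of them. On the log2 scale mutant gonads were at -3.52 ± 0.29 (SE) relative to wild-type gonads (adjusted p = 0.000315, quasi-likelihood test in edgeR, Benjamini-Hochberg), and 3.55% of all tested genes had a lower log2 fold change. Among the mutant samples, replicate 1 had both the highest *eif4enif1* level and the highest sum of oocyte markers, and replicate 2 the lowest of each. The fall of *eif4enif1* was smaller than that of the oocyte markers, whose median log2 fold change was -6.36, and of *eif4e1b* itself, at -4.92 ± 0.55 (-5.67 without mutant replicate 1).

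**Figure D1:**
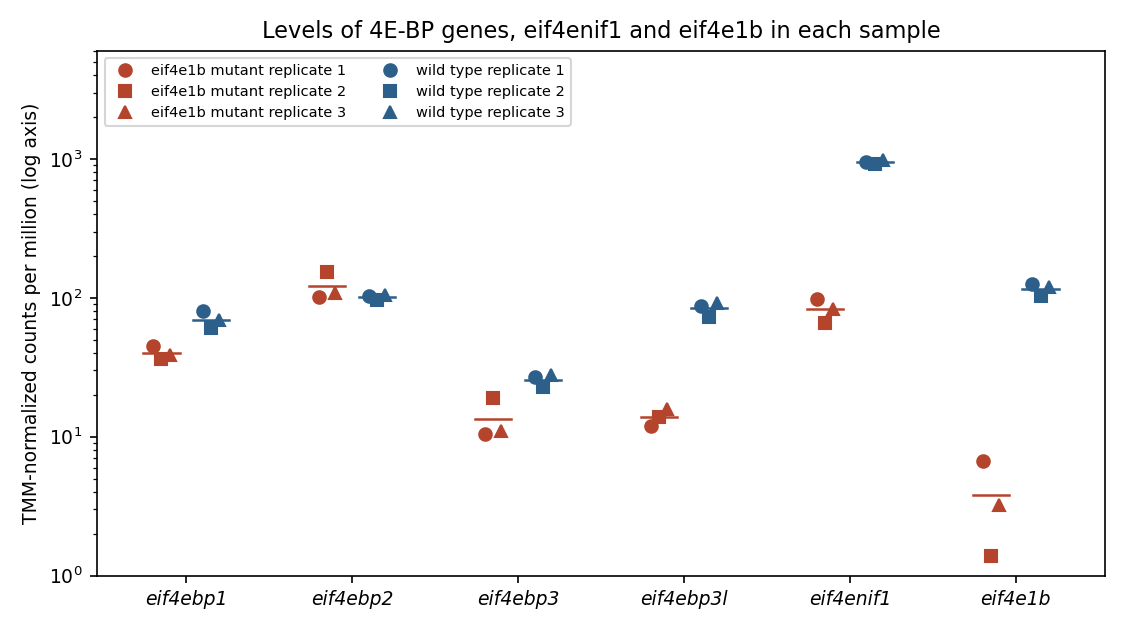
Level of each family member and of *eif4e1b* in every sample, in TMM-normalized CPM on a log axis, with mutant samples in red, wild-type samples in blue, one marker shape per replicate number and a horizontal line at the mean of each genotype. *eif4enif1* and *eif4ebp3l* show the widest gaps between the genotypes among the family members, at 82.7 against 946 CPM and 13.9 against 83.9 CPM, while the points of *eif4ebp2* overlap.

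*eif4ebp3l* fell most among the 4E-BP genes. Its product is a fish 4E-BP known from zebrafish muscle, where it restrains TORC1-dependent translation. The gene (ENSDARG00000041607) had 97, 90 and 119 counts in mutant replicates 1, 2 and 3, against 967, 788 and 1053 counts in wild-type replicates 1, 2 and 3. These counts correspond to 11.9, 14.0 and 15.9 CPM in mutant gonads (13.9 ± 2.00, SD, n = 3) and to 87.8, 72.6 and 91.1 CPM in wild-type gonads (83.9 ± 9.86, SD, n = 3). The genotypes were well apart. Their log2 difference was -2.59 ± 0.20 (SE, adjusted p = 0.000305, quasi-likelihood test in edgeR, Benjamini-Hochberg), with 7.32% of tested genes lower still. With TMM factors, mutant replicate 1 had the lowest *eif4ebp3l* level and the highest oocyte sum. This order depends on the scaling. Replicate 2 had the fewest *eif4ebp3l* counts, 90, in the deepest mutant library, so by library totals it was the lowest, as it was for the oocyte sum. A gene name table lists this identifier as EIF4EBP3, whereas RefSeq (GRCz12tu) calls it *eif4ebp3l*. In RefSeq the span of 1 other gene, LOC141377678, overlaps that of *eif4ebp3l*. Without the strand setting of the counting, reads of the pair cannot be told apart where the spans overlap.

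*eif4ebp3* encodes the 4E-BP that in mammalian cells is induced during long inhibition of mTORC1. It was the least counted member, and *eif4ebp3* (ENSDARG00000054916) had 86, 123 and 82 counts in mutant replicates 1, 2 and 3, against 298, 247 and 319 counts in wild-type replicates 1, 2 and 3. Its levels were 10.5, 19.1 and 10.9 CPM in mutant gonads (13.5 ± 4.82, SD, n = 3), compared with 27.1, 22.8 and 27.6 CPM in wild-type gonads (25.8 ± 2.65, SD, n = 3). With TMM factors, mutant replicate 2 came close to the lowest wild-type sample, yet the genotypes did not overlap. The log2 fold change of -0.94 ± 0.29 (SE) passed the threshold (adjusted p = 0.0239, quasi-likelihood test in edgeR, Benjamini-Hochberg). The call was lost without mutant replicate 1 (adjusted p = 0.0646, edgeR) and without wild-type replicate 3 (adjusted p = 0.0669, edgeR).

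*eif4ebp1*, the best studied 4E-BP and a target of both mTORC1 at the protein level and ATF4 at the transcript level in mammals, fell by a similar amount. *eif4ebp1* (ENSDARG00000043608) had 368, 235 and 289 counts in mutant replicates 1, 2 and 3, and 878, 654 and 800 counts in wild-type replicates 1, 2 and 3. This gave 45.1, 36.5 and 38.6 CPM in mutant gonads (40.0 ± 4.48, SD, n = 3) against 79.7, 60.3 and 69.2 CPM in wild-type gonads (69.7 ± 9.75, SD, n = 3). With TMM factors, every mutant sample was below every wild-type sample. By library totals, mutant replicate 1 lay above wild-type replicates 2 and 3. The log2 fold change of *eif4ebp1*, -0.80 ± 0.19 (SE), passed the threshold with TMM factors (adjusted p = 0.00858, quasi-likelihood test in edgeR, Benjamini-Hochberg) but not with library totals or upper-quartile factors.

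*eif4ebp2*, whose mammalian counterpart is the main 4E-BP of the brain, was the member with no call in either direction. *eif4ebp2* (ENSDARG00000031819) had 828, 987 and 811 counts in mutant replicates 1, 2 and 3, and 1143, 1048 and 1214 counts in wild-type replicates 1, 2 and 3. After normalization it was at 101, 153 and 108 CPM in mutant gonads (121 ± 28.1, SD, n = 3) and at 104, 96.6 and 105 CPM in wild-type gonads (102 ± 4.57, SD, n = 3). With TMM factors, mutant replicate 2 was the highest of the 6 samples, and the genotypes overlapped. By library totals it was the lowest mutant sample, and every mutant sample lay above every wild-type sample. The log2 fold change of *eif4ebp2* with TMM factors, 0.25 ± 0.21 (SE), did not pass the test (adjusted p = 0.326, quasi-likelihood test in edgeR, Benjamini-Hochberg). This value lay at the middle of the transcriptome, with 50.3% of tested genes below it.

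By sample and with TMM factors, 4 of the 5 genes had all mutant values below all wild-type values and none had all of them above. Among all tested genes, 35.4% lay below, 39.8% lay above and 75.2% did not overlap in either direction. With TMM factors, the exact two-sided permutation test of 3 samples against 3 gave p = 0.1 for each of these 4 members, the smallest it allows. For *eif4ebp2* the exact permutation test gave p = 0.3. Scaled by library totals, the samples of *eif4ebp1* overlapped and every mutant sample of *eif4ebp2* lay above every wild-type sample. The count of genes without overlap and the exact test results of *eif4ebp1* and *eif4ebp2* therefore hold for TMM factors only. How far the smaller changes passed the threshold depended on the scaling of the libraries. With library totals alone, which leave out the correction for composition, the log2 fold changes of *eif4ebp1* and *eif4ebp3* were -0.34 (adjusted p = 0.450, edgeR) and -0.60 (adjusted p = 0.126, edgeR). With upper-quartile factors they were -0.11 (adjusted p = 0.637, edgeR) and -0.24 (adjusted p = 0.477, edgeR), and *eif4ebp2* was then higher in mutant gonads, at 0.94 (adjusted p = 0.00843, edgeR). Across the tested genes the median log2 fold change moved with the scaling and was 0.23 with TMM factors, 0.65 with library totals and 0.92 with upper-quartile factors. Among all changed genes the share that was higher moved likewise, being 53.9% with TMM factors, 68.8% with library totals and 71.1% with upper-quartile factors. Set against the median of all genes, the members stood with TMM factors at -3.75 for *eif4enif1*, -2.82 for *eif4ebp3l*, -1.17 for *eif4ebp3*, -1.03 for *eif4ebp1* and 0.02 for *eif4ebp2*. A change of scaling shifts all genes by about the same amount, so these distances are nearly fixed under other scalings. Over 15 alternative settings they ranged between -3.92 and -3.53 for *eif4enif1*, -2.94 and -2.70 for *eif4ebp3l*, -1.42 and -1.04 for *eif4ebp3*, -1.15 and -0.89 for *eif4ebp1*, and -0.12 and 0.14 for *eif4ebp2*. The lower level of *eif4ebp3l* and *eif4enif1* passed the threshold in each of these 15 settings, with adjusted p-values of at most 0.00306 and 0.00324 (edgeR, DESeq2 or limma).

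**Figure D2:**
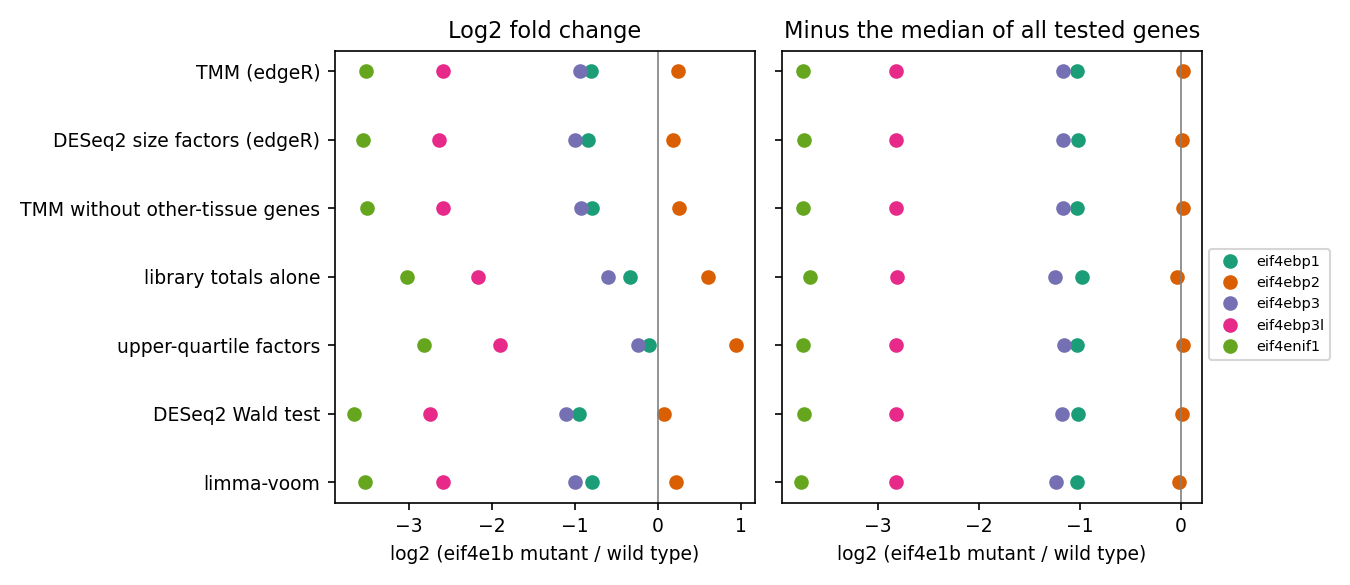
Log2 fold change of each member, mutant over wild type, under 7 normalizations or tests (left), and the same value minus the median of all tested genes (right). On the left all members shift to the right together with library totals and with upper-quartile factors, where *eif4ebp2* reaches 0.94. On the right the columns are nearly straight because a change of scaling shifts members and median by about the same amount, and the order is *eif4enif1*, *eif4ebp3l*, *eif4ebp3*, *eif4ebp1*, *eif4ebp2*.

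Whether members moved by different amounts was asked with the ratio of their counts within each sample, in which library scaling cancels, while gene length cancels in the difference between the genotypes. Over the 10 pairs of members, the mutant and wild-type ratios did not overlap for 9, with an exact two-sided permutation p of 0.1 each, the smallest that 3 against 3 samples allow (0.111 after Benjamini-Hochberg adjustment over 10 pairs). Over all 201814095 pairs of tested genes, 69.4% had ratios that did not overlap between the genotypes, so the count over the members is given as a description. The widest difference was that between *eif4ebp2* and *eif4enif1*. The log2 ratio of their counts was 0.04, 1.22 and 0.37 in mutant replicates 1, 2 and 3, against -3.19, -3.24 and -3.21 in wild-type replicates 1, 2 and 3, a difference of 3.76 ± 0.35 (SE). The ratio hardly varied among wild-type samples and spread over more than 1 log2 unit among mutant samples.

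Within the 4E-BP genes, *eif4ebp2* against *eif4ebp3l* had log2 ratios of 3.09, 3.45 and 2.76 in mutant replicates 1, 2 and 3, and 0.24, 0.41 and 0.21 in wild-type replicates 1, 2 and 3. The difference was 2.81 ± 0.21 (SE), with nearly balanced counts in wild-type samples and an excess of *eif4ebp2* counts in every mutant sample. The paralogs *eif4ebp3* and *eif4ebp3l* also parted. Their log2 ratio was -0.17, 0.45 and -0.53 in mutant replicates 1, 2 and 3, against -1.70, -1.67 and -1.72 in wild-type replicates 1, 2 and 3, a difference of 1.61 ± 0.29 (SE).

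The other differences with no overlap between the genotypes were 2.74 ± 0.14 for *eif4ebp1* over *eif4enif1*, 2.56 ± 0.44 for *eif4ebp3* over *eif4enif1*, 1.79 ± 0.21 for *eif4ebp1* over *eif4ebp3l*, 1.2 ± 0.11 for *eif4ebp2* over *eif4ebp3*, -1.02 ± 0.28 for *eif4ebp1* over *eif4ebp2*, and 0.95 ± 0.26 for *eif4ebp3l* over *eif4enif1* (mutant minus wild type, log2, SE). In each ratio with a 4E-BP gene, *eif4enif1* was the one with the deeper decrease. *eif4ebp1* and *eif4ebp3* were the pair whose ratios overlapped, with a difference of 0.18 ± 0.36 (SE, exact permutation p = 0.6). The standard error exceeded this difference, and without mutant replicate 1 it was -0.06.

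**Figure D3:**
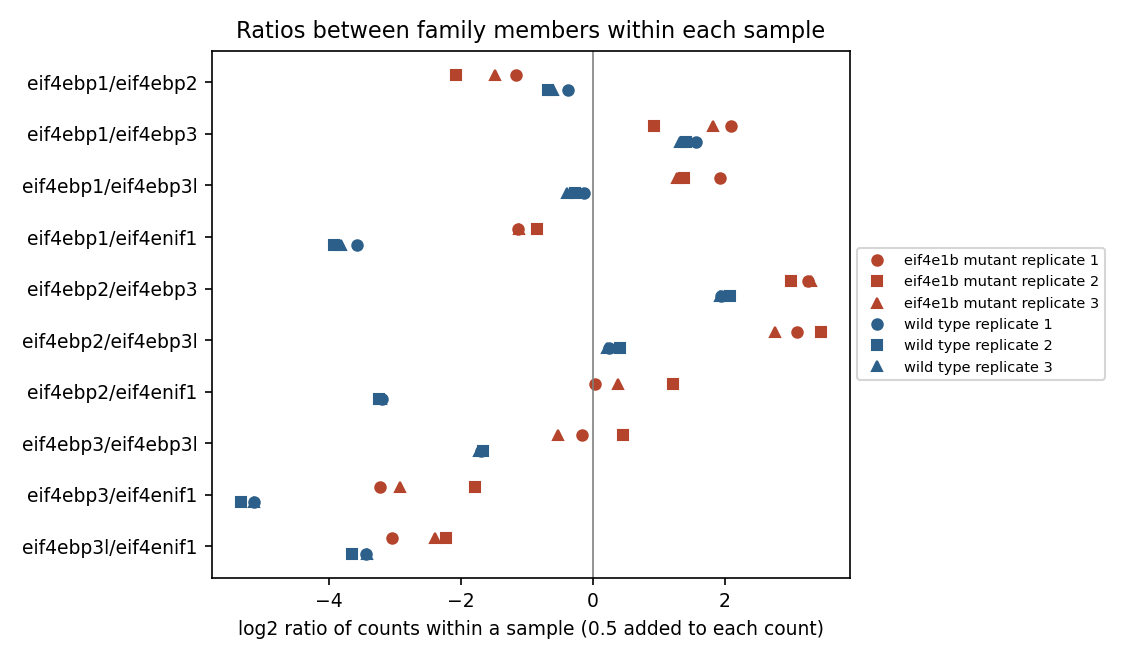
Log2 ratio of the counts of each pair of members within each sample, with 0.5 added to each count, for mutant samples (red, upper row of each pair) and wild-type samples (blue, lower row), one marker shape per replicate number. The genotypes are apart in every pair except *eif4ebp1* over *eif4ebp3*, and the gap is widest for *eif4ebp2* over *eif4enif1*, 3.76 log2 units.

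The same counts can be read as the make-up of the 4E-BP transcripts, as a description with no test. *eif4ebp2* supplied 60.0% to 68.8% of the summed counts of the 4 4E-BP genes in mutant samples (63.7% ± 4.53, SD, n = 3), against 34.8% to 38.3% in wild-type samples (36.3% ± 1.80, SD, n = 3). *eif4ebp3l* supplied 6.27% to 9.15% in mutant samples (7.48% ± 1.49, SD, n = 3), against 28.8% to 31.1% in wild-type samples (29.8% ± 1.19, SD, n = 3). These shares were far apart.

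The share of *eif4ebp1* was 21.8% ± 5.17 in mutant samples and 24.7% ± 1.71 in wild-type samples (SD, n = 3 each), and the samples overlapped. For *eif4ebp3* it was 7.04% ± 1.33 in mutant samples and 9.17% ± 0.217 in wild-type samples (SD, n = 3 each), with the highest mutant sample at 8.57% and the lowest wild-type sample at 9.02%. The 95% Wilson intervals of the single-sample shares had half-widths of 0.982 to 2.63 percentage points, which cover counting error only. Shares of counts are not shares of molecules, since longer transcripts give more reads and no transcript length was used here. Summed over the 4 genes, the level was 169, 223 and 174 CPM in mutant replicates 1, 2 and 3 (188 ± 29.8, SD, n = 3), against 298, 252 and 293 CPM in wild-type replicates 1, 2 and 3 (281 ± 25.2, SD, n = 3). The samples of the genotypes were apart with TMM factors. With library totals alone they overlapped, at 176 to 250 CPM in mutant samples and 233 to 254 CPM in wild-type samples. With upper-quartile factors they also overlapped and the mutant mean was the higher one, with sums of 215 to 284 CPM in mutant samples (239 ± 38.6, SD, n = 3) and 201 to 239 CPM in wild-type samples (221 ± 19.3, SD, n = 3).

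**Figure D4:**
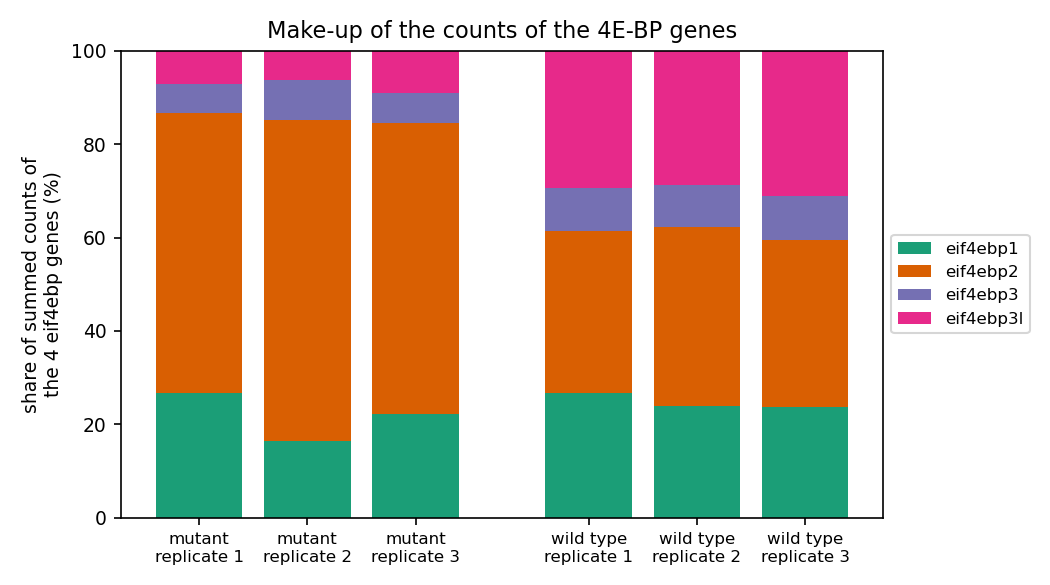
Share of each 4E-BP gene in the summed counts of the 4 4E-BP genes, in percent, with one bar per sample, mutant samples on the left and wild-type samples on the right. *eif4ebp2* takes 60.0% to 68.8% of the mutant bars and 34.8% to 38.3% of the wild-type bars, and *eif4ebp3l* shrinks to 6.27% to 9.15% in the mutant bars, against 28.8% to 31.1% in the wild-type bars.

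4E-BPs and 4E-T bind canonical eIF4E, and its paralogs differ in how well they take these partners. Of the paralogs, 6 of 7 symbols of that list were matched and tested (*eif4ea* was not). Log2 fold changes of list genes are given below with their standard errors. The background for each list below is that of all tested genes. With TMM factors 37.5% of these were higher and 32.0% lower, with a median log2 fold change of 0.23. With TMM factors 4 were lower, none was higher and the median log2 fold change was -0.93, while 2 were lower with library totals, and 3 lower and 1 higher with upper-quartile factors. Besides *eif4e1b*, these were the class III gene *eif4e3* (-1.54 ± 0.16), *eif4e2rs1* of the 4EHP class, which binds caps weakly and serves in repression (-1.19 ± 0.16, but -0.75 and adjusted p = 0.0908, edgeR, with library totals), and the canonical *eif4eb* (-0.67 ± 0.18), which turned to 0.02 with upper-quartile factors and lost its call with library totals (-0.27, adjusted p = 0.455, edgeR) and without wild-type replicate 3 (adjusted p = 0.0580, edgeR). *eif4e1c*, a fish paralog of canonical type, was at 64.4, 110 and 70.6 CPM in mutant replicates 1, 2 and 3 and at 78.3, 74.5 and 85.5 CPM in wild-type replicates 1, 2 and 3, which gave 0.04 ± 0.24 on the log2 scale (SE, adjusted p = 0.893, edgeR). With upper-quartile factors *eif4e1c* passed as higher (0.73, adjusted p = 0.0329, edgeR). *eif4e2*, the 4EHP gene, was at -0.45 ± 0.24 (log2, SE, adjusted p = 0.131, edgeR).

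The binders were also set against *eif4e1c* within each sample, as values without a test and in ratios chosen after the data were seen. The log2 ratio of *eif4ebp2* to *eif4e1c* counts was 0.65, 0.48 and 0.62 in mutant replicates 1, 2 and 3, and 0.41, 0.38 and 0.30 in wild-type replicates 1, 2 and 3, a difference of 0.22 ± 0.06 (SE). With TMM factors both genes were highest in mutant replicate 2, whereas by library totals that was the lowest mutant sample for both. Their counts kept close to each other in all samples. For *eif4ebp3l* to *eif4e1c* the ratio was -2.43, -2.97 and -2.15 in mutant replicates 1, 2 and 3, and 0.17, -0.04 and 0.09 in wild-type replicates 1, 2 and 3, a difference of -2.59 ± 0.25 (SE). *eif4enif1* to *eif4e1c* differed by -3.54 ± 0.41 (SE), and *eif4enif1* to *eif4e1b*, which fell further than its binder, by 1.65 ± 0.47 (SE).

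The repressors that work with 4E-T fell with it in part. Of 13 listed partners, 8 were lower in mutant gonads, none was higher and 5 did not pass the test, with a median log2 fold change of -2.08. Those of oocytes fell most, namely the RNA-binding proteins *zar1l* (-6.75) and *zar1* (-6.53), *lsm14b* (-6.06), *patl2* (-6.06) and *cpeb1b* (-5.73), while the generally expressed *patl1* (-2.50), *lsm14aa* (-2.08) and the helicase gene *ddx6* (-1.95) fell by less than *eif4enif1*. Without mutant replicate 1, the sample with the highest oocyte sum, the 5 oocyte genes lay between -8.73 and -6.88. The paralogs *lsm14ab* (0.41) and *cpeb1a* (0.10), the deadenylase scaffold *cnot1* (0.23) and *ybx1* (0.41) were among those that did not pass the test. With library totals 8 of the 13 were lower and none was higher, and with upper-quartile factors 8 were lower and 3 higher. *zar1* and *zar1l* also belong to the oocyte markers above.

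Other proteins with eIF4E-binding or 4EHP-binding motifs were split, with 1 of 8 tested genes higher, 4 lower and a median log2 fold change of -0.50. *gigyf2*, a partner of 4EHP, was at -1.80 ± 0.26, and *ANGEL2*, of an enzyme family whose member Angel1 binds eIF4E, at -1.51 ± 0.21, or -1.04 with library totals (adjusted p = 0.0501, edgeR). The eIF4G gene *eif4g3b* was at -0.66 ± 0.17, a value that turned to 0.03 with upper-quartile factors and lost its call without wild-type replicate 3 (adjusted p = 0.0528, edgeR). *cyfip2*, whose relative CYFIP1 represses translation with FMRP, was higher (1.13 ± 0.34), but its call was lost in 4 of 6 fits with a sample left out, with adjusted p-values up to 0.114 (edgeR), those without mutant replicate 1 or 3 and without wild-type replicate 2 or 3. Without wild-type replicate 3 the list held 2 lower genes, with library totals 1 higher and 1 lower, and with upper-quartile factors 2 higher and 2 lower (median 0.19). The main eIF4G gene *eif4g1a* was at 566, 1106 and 666 CPM in mutant replicates 1, 2 and 3 and at 731, 734 and 753 CPM in wild-type replicates 1, 2 and 3, and did not pass the test (0.08 ± 0.34).

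Upstream of the 4E-BPs, 31 tested genes of mTORC1 and its regulators included 7 that were higher and 14 that were lower, with a median log2 fold change of -0.59. The stress-induced mTORC1 inhibitor *ddit4* had the lowest log2 fold change of the list (-4.59 ± 0.32), followed in the order of p-values by the Rag GTPase gene *rragca* (-2.39 ± 0.23) and the kinase gene *pdpk1b* (-1.62 ± 0.18). The sestrin *sesn3* (2.47 ± 0.31), the kinase gene *akt1* (1.96 ± 0.32) and *DEPTOR*, an inhibitory subunit of mTOR complexes (3.83 ± 0.82), were higher. Paralogs differed, with *sesn1* (0.79) and *akt3b* (1.42) higher, *sesn2* lower (-1.95), and *akt2* (-0.25) and *akt2l* (0.73) not past the threshold. *DEPTOR* was at 23.8, 112 and 31.6 CPM in mutant replicates 1, 2 and 3, and without mutant replicate 2 its log2 fold change was 2.86. The split was 7 higher and 9 lower with library totals and 10 of each with upper-quartile factors, and without wild-type replicate 3 only 4 were higher.

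Among 11 tested genes of other mTORC1 targets, 5 were higher and 3 lower, with a median log2 fold change of 0.87. The transcription factor gene *tfe3b*, whose mammalian relative TFE3 activates *EIF4EBP3*, was higher (2.5 ± 0.36), as were the elongation factor kinase *eef2k* (2.22 ± 0.32) and the adaptor *grb10b* (2.29 ± 0.48, or 2.96 without wild-type replicate 1). The autophagy kinase *ulk1a* was lower (-1.5 ± 0.35), whereas the lower values of *LARP1* (-0.66) and *ATG13* (-0.56) turned to 0.03 and 0.13 with upper-quartile factors. No gene of this list was lower with library totals or upper-quartile factors, and 1 was lower without wild-type replicate 2 or without wild-type replicate 3. Without mutant replicate 3 the higher genes numbered 3.

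ATF4 and its targets, to which mammalian *EIF4EBP1* belongs, had 17 tested genes, of which 8 were higher and 5 lower. Their median log2 fold change was 0.18. Over all tested genes the median was 0.23, with 37.5% higher and 32.0% lower. The ATF4 paralogs went opposite ways, *atf4b* at 1.45 ± 0.22 and *atf4a* at -1.61 ± 0.25. *slc3a2b*, an amino acid transporter subunit, was at 2.52 and the stress factor *DDIT3* at 2.66 (3.15 and 3.38 without wild-type replicate 1), while *cebpg* was at -1.14 and the glutathione-degrading *CHAC1* at -1.0. With library totals or upper-quartile factors the lower genes numbered 1, and the higher genes numbered 4 without mutant replicate 3, wild-type replicate 2 or wild-type replicate 3.

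Of 4 genes for the turnover and dephosphorylation of 4E-BP, 2 were lower and none was higher, with a median log2 fold change of -1.03. With library totals 2 were lower and none was higher, and with upper-quartile factors 2 were lower and 1 higher (median -0.33). With DESeq2's Wald test or limma-voom 3 were lower. *ppm1g*, whose mammalian product removes phosphate from 4E-BP1, was at 154, 159 and 155 CPM in mutant replicates 1, 2 and 3, against 860, 841 and 862 CPM in wild-type replicates 1, 2 and 3 (-2.45 ± 0.24, adjusted p = 0.000415, edgeR). *cul3b*, a scaffold of the ligase that in mammals degrades unphosphorylated 4E-BP1 with KLHL25, was at -1.62 ± 0.16 (adjusted p = 0.000460, edgeR), and *KLHL25* itself at 0.44 (adjusted p = 0.333, edgeR). Counts measure transcripts only, and neither the amount nor the phosphorylation of any 4E-BP was measured in these samples. The study measured proteins by mass spectrometry in other pools of such gonads, and those values were not used here.

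**Figure D5:**
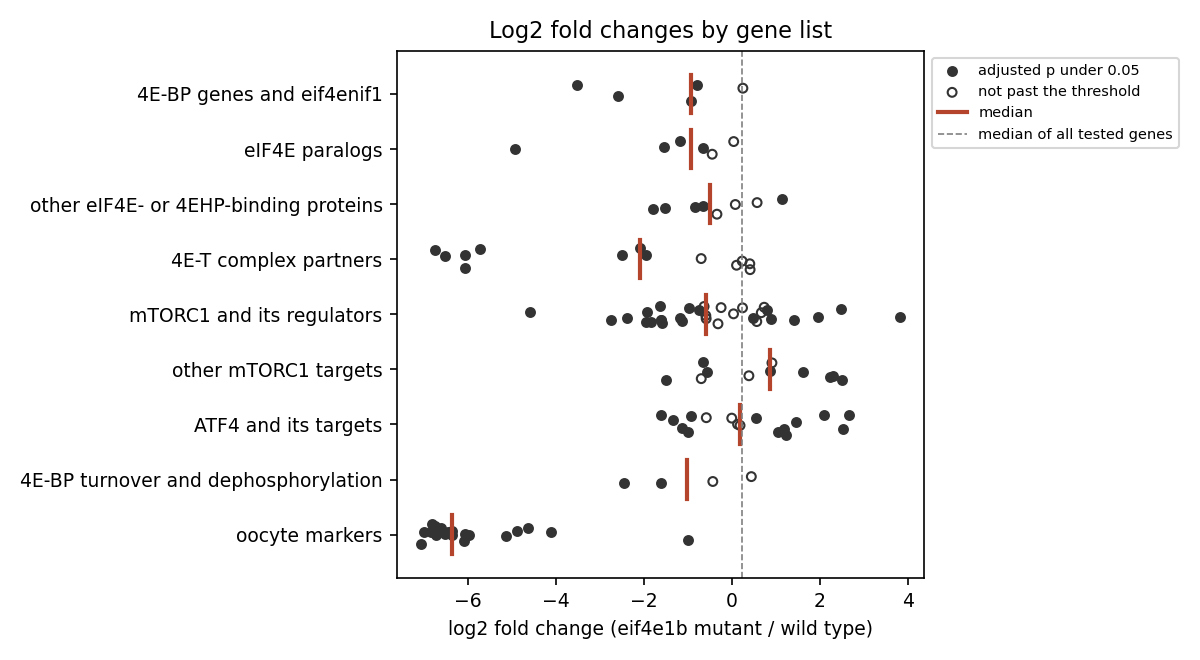
Log2 fold change, mutant over wild type, of every tested gene in the family, its pathway lists and the oocyte markers, with filled points for an adjusted p under 0.05, open points for genes that did not pass, a red bar at the median of each list and a dashed line at the median of all tested genes, 0.23. The 5 family members lie between -3.52 and 0.25 and the oocyte markers between -7.06 and -1.0, with a median of -6.36. The upper end of the marker range is set by *dazl* alone, and the next marker, *org*, is at -4.12. *eif4enif1* and *eif4ebp3l* lie between *org* and *dazl*, above all other markers.

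The profile over the 6 samples was compared between each member and all tested genes that carry a symbol, as the Euclidean distance between log2 levels centred on each gene's mean. Nearest to *eif4enif1* were *pdlim2* (0.165), *rell1* (0.168) and the DNA glycosylase gene *neil3* (0.170), and nearest to *eif4ebp3l* were *asb3* (0.133), *reep2* (0.166) and *zdhhc18a* (0.175). *eif4ebp2* lay nearest to the DNA glycosylase gene *ogg1* (0.0854) and to the chaperonin subunits *cct4* (0.158) and *cct8* (0.163). For *eif4ebp1* these were *CHMP1B* (0.101), *mif* (0.126) and *srsf9* (0.141), and for *eif4ebp3* they were *stx18* (0.15) and *mrpl32* (0.153). None of these nearest genes was another member of the family.

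The remaining marker lists describe the tissue in which these levels were read. Testis somatic markers were higher for 6 of 8 genes (1287 to 2036 CPM summed in mutant samples, 258 to 634 CPM in wild-type samples) and ovarian somatic markers for 6 of 6 (195 to 207 CPM in mutant samples, 10.1 to 33.5 CPM in wild-type samples). The ovarian list held 11 symbols, of which *cyp19a1a*, *foxl2a*, *foxl2b*, *inhbaa* and *nr5a1a* were not matched, so its count leaves these markers out. The 6 matched genes were *fshr*, *lhcgr*, *hsd3b1*, *inha*, *nr5a2* and *gata4*. Whether these 6 tell ovarian from testis somatic cells was not tested, so their count does not show more ovarian somatic cells. Of 13 markers of early germ cells, which include *piwil1*, 4 were higher and 2 lower, and of 10 spermatid markers 4 were higher and 1 lower. These 10 include *pgk1*, to which the listed symbol *pgk2* was matched and which did not pass the test (adjusted p = 0.988, edgeR). Markers were also higher for 3 of 13 genes of liver, 11 of 12 of skeletal muscle, 5 of 8 of skin, 3 of 5 of leukocytes and 2 of 2 of red blood cells, and none was lower. Liver markers summed to 873 CPM in mutant replicate 1, 185322 CPM in mutant replicate 2 and 23955 CPM in mutant replicate 3. With TMM factors, replicate 2 was also the mutant sample with the highest *eif4ebp2* and *eif4ebp3* levels. By library totals it was the highest mutant sample for neither gene. Without replicate 2, the log2 fold change with TMM factors was 0.06 for *eif4ebp2* and -1.24 for *eif4ebp3*.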

How the data were processed

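Gonad RNA of 3 *eif4e1b* mutant and 3 wild-type samples was measured by RNA-seq. The authors prepared stranded libraries depleted of ribosomal RNA and deposited raw counts per Ensembl gene, with no normalization, for 32520 genes in each sample. The submitters' processing notes list GRCz11, Trim Galore 0.5.0, Bowtie2 2.3.4.1, featureCounts of Subread 1.6.2, DESeq2 1.18.1 and R 3.4.1, while the annotation release, the strand setting and the handling of reads with several matches are not given in the sources used here. Members and lists were chosen with earlier results of these data known.

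Symbols came from a gene name table for 29201 genes and from the study's tables for 6863, and 29399 genes had one from either. Genotypes were compared with edgeR's two-sided quasi-likelihood test (edgeR 4.0.16, R 4.3.3) with TMM factors and genotype as the only term, over the 20091 genes left by edgeR's default filter (minimum count 10, minimum total 15), with Benjamini-Hochberg adjustment over all of them and a threshold of 0.05. The standard error is the absolute log2 fold change divided by the square root of the F statistic. The script was tested on simulated data in which a small set of genes was changed equally in both directions. The simulated libraries lacked the difference in make-up between the genotypes, so that test does not bear on the choice of scaling. Ratios between members used counts with 0.5 added and the exact permutation test of 3 against 3 samples (scipy 1.17.1), adjusted over 10 pairs. Lists, which were 7 of the pathway and 11 of cell type markers, were described by counts and medians and not tested as sets.

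Genes named are the members, *eif4e1b*, the eIF4E paralogs, per pathway list up to 3 genes in each direction with the smallest p-values and no overlap between genotypes, genes overlapping a member, and the 3 nearest profiles per member. The results of some genes that meet this rule or belong to a list are not reported here by name. Genes of the pathway lists beyond these were named after their values were seen. The alternatives were DESeq2's size factors, library totals, upper-quartile factors, TMM factors without genes of other tissues, 2 other filters, DESeq2's Wald test (DESeq2 1.42.0), limma-voom (limma 3.58.1), a replicate block and leaving out each sample. Ratios to eIF4E paralogs, the sum of the 4E-BP genes under other scalings and the share of all gene pairs with separate ratios were added after seeing the data. RefSeq coordinates (GRCz12tu) served only to find genes overlapping a member, and neither sequences nor transcript lengths were used here. Python 3.11.15 with pandas 2.3.3 was used for tables, and matplotlib 3.10.9 for figures.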

Additional observations from a re-analysis of the deposited data

How the results depend on the processing

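With the TMM factors replaced by library totals alone, the log2 fold changes were -0.34 for *eif4ebp1* (adjusted p = 0.450, edgeR) and -0.60 for *eif4ebp3* (adjusted p = 0.126, edgeR), and 3740 genes were lower in mutant gonads in place of 6437. With upper-quartile factors they were -0.11 for *eif4ebp1*, -0.24 for *eif4ebp3* and 0.94 for *eif4ebp2* (adjusted p = 0.637, 0.477 and 0.00843, edgeR), 4001 genes were lower, and *eif4eb*, *eif4g3b*, *LARP1* and *ATG13* had values of 0.024, 0.031, 0.027 and 0.13, opposite in sign to those with TMM factors. The median over all genes moved with these scalings as given above, and no other cause was tested. *eif4ebp3l* and *eif4enif1* kept their direction and their side of the threshold under all 15 alternatives, between -2.85 and -1.90 and between -3.69 and -2.82. With one sample left out at a time, the log2 fold changes lay between -0.95 and -0.71 for *eif4ebp1*, 0.06 and 0.33 for *eif4ebp2*, and -1.24 and -0.82 for *eif4ebp3*, and the *eif4ebp1* to *eif4ebp3* ratio difference between -0.057 and 0.52. With 1 sample left out of a group of 3, the exact permutation test as run here, which doubles the smaller tail, gives no p under 0.2.

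No pairing by replicate number was seen. Same-numbered samples had correlations of deviations from the group means of 0.0964, -0.184 and -0.0516 over 20091 genes, and no mutant sample correlated best with its own number. With means of only 3 samples this check cannot show whether same-numbered samples shared a clutch or batch. A replicate block gave -0.80, 0.22, -0.98, -2.59 and -3.54 for *eif4ebp1*, *eif4ebp2*, *eif4ebp3*, *eif4ebp3l* and *eif4enif1* (adjusted p = 0.0213, 0.469, 0.0460, 0.00306 and 0.00324, edgeR), with 6625 genes higher and 5887 lower. In the block *LARP1* (adjusted p = 0.0734), *ATG13* (0.0718) and *eif4g3b* (0.0555, all edgeR) were no longer past the threshold. Counts per kilobase were not run, because no transcript length was used here. Depth in mutant samples limits *eif4ebp3* and *eif4ebp3l* most, with 82 to 123 and 90 to 119 counts.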
